A study of Homo sapiens with 17 samples.

Results

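SOX2 lies on the long arm of chromosome 3, and squamous cancers often carry extra copies of the arm around it, so that neighbouring genes are gained together with SOX2. The genes described here are 51 of these neighbours from the segment 3q26-q29, chosen by name among the 57820 genes of the tables. No limit on a measured value was used, but earlier results of these data were known. They run from MECOM at chr3:168801287 to ETV5 at chr3:185828107 in GRCh37, the build equivalent to hg19, a span of 17 Mb with 27 genes before SOX2 and 24 after it. Of the 51, 50 are protein-coding. The other is LINC01206, a long noncoding RNA listed in the tables under its clone name RP11-416O18.1.

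An amplicon is a stretch of DNA present in extra copies, and genes inside it tend to be transcribed more in proportion to their copies, whether or not they contribute to the tumour. Several of the 51 genes are known from squamous carcinoma in their own right: PIK3CA encodes the catalytic subunit of a lipid kinase of growth factor signalling, PRKCI an atypical protein kinase C, ECT2 a guanine nucleotide exchange factor of cell division, ACTL6A a subunit of the BAF chromatin remodelling complex, FXR1 an RNA-binding protein and DCUN1D1 a factor of cullin neddylation. An enhancer is a noncoding element that raises transcription of a gene at a distance, and it may act on several genes of its neighbourhood or on one.

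RNA was sequenced from 13 libraries of KYSE140, an esophageal squamous carcinoma line, and 4 of SKMES1, a lung squamous carcinoma line. KYSE140 cells that stably carried a CRISPRi construct (a repressor built on inactive Cas9) were given guides to e1, an enhancer 3′ of SOX2 (2 libraries), or guides with no genomic target (2 libraries). KYSE140 cells with active Cas9 were given SOX2 guides 2, 3 and 4 (3 libraries) or guides cutting AAVS1 and a chromosome 2 site (2 libraries). KYSE140 cells, for which the labels name no construct, received ARV-771 at 0.5 µM, a small-molecule protein degrader, or DMSO, each over 6 h (2 libraries each). SKMES1 cells with a CRISPR activation system, which brings activators to dCas9, were given e1 guides 1 and 3 or guides with no target (2 libraries each). The labels name no clone, so the transduced cells are taken as guide-bearing populations, and replicates are different guides or, in the drug experiment, cultures A and B. Their p-values therefore measure the spread between guides or cultures.

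Total expected counts ran from 7260730 to 15781463 per library. Replicates differed by more than sampling noise in each group, most in the SKMES1 controls (chi-square per degree of freedom 28.8) between SOX2 guide 4 and guide 2 (13.4) and in the SKMES1 e1 libraries (13.3), against 2.19 to 3.05 among the other KYSE140 replicates except guide 4 against guide 3 (6.78). In KYSE140 the 10 squamous epithelial markers examined (KRT5, TP63, DSG3 and others) summed to 10338 to 33635 TPM (a share of transcripts, corrected for gene length). In SKMES1 they summed to 684 to 2205 TPM, 5 of the 10 had a median of at least 1 TPM, and KRT5 did not pass 1.26 TPM, so SKMES1 lacked part of the squamous programme its label names. Markers of fibroblasts summed to at most 44.2 TPM and endothelial markers to at most 8.38 TPM in any library. Immune markers reached 136 TPM in SKMES1 and 70.2 TPM in KYSE140, of which CD68 gave nearly all, and PTPRC, which marks leukocytes, did not pass 0.55 TPM.

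In control KYSE140 cells the segment was led by genes close to SOX2. FXR1 stood at 905 to 1097 TPM over the 6 control libraries with a median of 952 TPM, above SOX2 itself at 223 to 428 TPM. DNAJC19, a subunit of the mitochondrial protein import motor, followed with a median of 480 TPM, then PSMD2, a proteasome subunit, with 370 TPM, AP2M1, a clathrin adaptor subunit, with 331 TPM, and DCUN1D1 with 295 TPM. The ranges of the last pair overlapped (301 to 341 TPM and 273 to 344 TPM), as did those of PSMD2 (337 to 433 TPM) and AP2M1. At the low end stood CHRD, a secreted antagonist of bone morphogenetic proteins, at 0.41 to 0.83 TPM.

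The 3 KYSE140 control groups differ in Cas9 construct and treatment. The highest group mean in TPM was at most 1.5 times the lowest in 39 of the 51 genes, such as AP2M1 (1.08 times) and FXR1 (1.12 times), and between 1.5 and 2 times in 6, among them KLHL24 (1.96 times) and MECOM (1.79 times). The ratio was over 2 times in TNIK (4.34 times), a kinase of Wnt signalling, ETV5 (3.09 times), an ETS transcription factor, TNFSF10 (2.87 times), the death ligand TRAIL, LAMP3 (2.40 times), a lysosomal membrane protein, PIK3CA (2.05 times) and LINC01206. LINC01206 stood far apart, with 417 and 480 reads in the CRISPRi controls, 2157 and 2013 reads under the AAVS1 and chromosome 2 guides, and 87 and 99 reads under DMSO. It is counted in the comparison of the lines below, where its fitted log2 difference ran from -11.85 to -3.13 over the settings, so no fold between the lines is given for it.

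The 2 lines differed sharply in a short interval around SOX2. Fold changes below compare CPM, read counts scaled to library size with TMM factors, by edgeR's quasi-likelihood test over all genes. Genes called had a p under 0.05 after Benjamini-Hochberg adjustment (given as "edgeR adjusted p") and differed more than 1.5-fold. Between the 2 SKMES1 control libraries and the 6 KYSE140 control libraries, 36 of the 51 genes were called, 8 higher and 28 lower in SKMES1, where 57.2% of all 15532 genes tested were called, 31.4% higher and 25.8% lower. The median log2 difference of the 51 genes was -0.76, against 0.05 over all genes. The line, the CRISPR construct and the experiment changed together in this comparison and cannot be told apart, and gene copy number was not measured here. The authors list KYSE140 among lines with high SOX2 expression in which SOX2 and its candidate enhancers are amplified together. They describe SKMES1 as a line of low SOX2 expression. The part of copy number in these differences was not tested. Fewer cells of a type and less RNA per cell cannot be told apart in such bulk RNA either. Of the 10 squamous markers, 9 were lower in SKMES1, and their part in these differences was not tested.

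The genes of the 51 over 6-fold lower in SKMES1 were 9 in number (LINC01206 included) and adjacent in the order of the 51: FXR1, DNAJC19, LINC01206, ATP11B, DCUN1D1, MCCC1, LAMP3, B3GNT5 and KLHL24. They fill the interval chr3:180585929-183402307 (2.82 Mb), with SOX2 inside it and no other gene of the 51 between them. Over the whole transcriptome 5.76% of the genes tested were that much lower. The interval and the limit of 6-fold were chosen after these values were seen, and no test was made of their being adjacent. Of the 51, the gene outside the interval that came nearest the limit was GPR160, an orphan G-protein-coupled receptor 11.6 Mb before SOX2, which was 5.59-fold lower and passed the limit against the DMSO controls alone (log2 -2.66). Outside the 51, NAALADL2, which lies between MECOM and TTC14, was lower by 3.37 on the log2 scale. Falls over 6-fold were also found elsewhere on chromosome 3, in 8 of 72 other genes tested after ETV5 and 37 of 688 before MECOM. From YEATS2 to ETV5 there were 0 among 14 other genes.

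**Figure D1:**
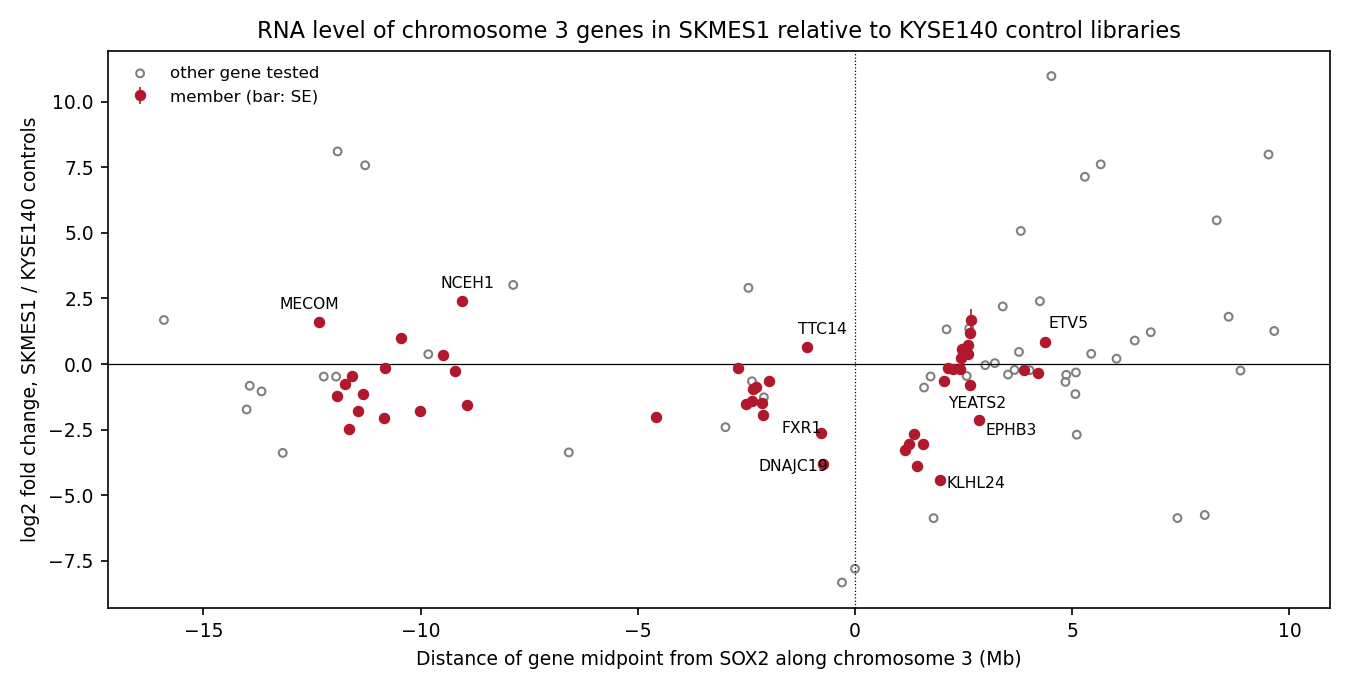
Log2 fold change of SKMES1 over KYSE140 control libraries (vertical axis) against the distance of each gene's midpoint from SOX2 in Mb (horizontal axis), for the genes tested by edgeR. Red points are 50 of the 51 neighbours with their SE, and grey circles are other genes of chromosome 3. The neighbours from FXR1 to KLHL24 lie at or below -2.62, while TTC14 just before them lies at 0.64 and YEATS2 just after them at -0.66. LINC01206, with 3 and 0 reads in SKMES1, is left out.

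KLHL24, an adaptor of a cullin ubiquitin ligase, showed the largest fold given among the 51. It measured 188 to 300 CPM with a median of 207 CPM in the KYSE140 controls and 9.55 and 10.5 CPM in SKMES1. The groups lay far apart, and the level was 21.4-fold lower in SKMES1 (log2 -4.42 ± 0.15 SE, edgeR adjusted p = 5.0e-09). LAMP3 measured 75.7 to 181 CPM (median 112 CPM) in KYSE140 and 9.26 and 5.66 CPM in SKMES1, a 15-fold difference (log2 -3.90 ± 0.19, edgeR adjusted p = 5.2e-08).

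DNAJC19 measured 242 to 344 CPM (median 272 CPM) in KYSE140 and 21.7 and 18.9 CPM in SKMES1. It was 13.9-fold lower (log2 -3.80 ± 0.10, edgeR adjusted p = 8.3e-10) without overlap. ATP11B, a phospholipid flippase, measured 837 to 932 CPM (median 902 CPM) against 94.2 and 90.1 CPM, which was 9.67-fold lower (log2 -3.27 ± 0.08).

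B3GNT5, a glycosyltransferase of lactosylceramides, and DCUN1D1 were both lower by 3.06 on the log2 scale (SE 0.09 each). DCUN1D1 stood at 485 to 627 CPM in KYSE140 and at 69.1 and 61.0 CPM in SKMES1. MCCC1, a subunit of the mitochondrial methylcrotonyl-CoA carboxylase of leucine breakdown, stood at 177 to 247 CPM and at 33.9 and 31.7 CPM (log2 -2.67 ± 0.08). FXR1, the most abundant of the 51, showed the smallest difference of the 9, from 1274 to 1543 CPM in KYSE140 to 216 and 238 CPM in SKMES1 (log2 -2.62 ± 0.09, edgeR adjusted p = 3.3e-09). LINC01206 had 3 and 0 reads in the SKMES1 controls, which is at or under the limit of measurement, and no fold is given.

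Among the 51, the genes next to the interval differed far less, and the choice of the interval left neither of them over 6-fold lower. TTC14, a gene of little known function whose end lies 250.3 kb before FXR1, was higher in SKMES1, with 29.1 and 30.5 CPM against 16 to 21.3 CPM (log2 0.64 ± 0.09, edgeR adjusted p = 1.3e-04). That call was lost against the knockout controls alone (0.57) and against the DMSO controls alone (0.51). YEATS2, a subunit of the ATAC histone acetyltransferase complex, starts 13.3 kb after KLHL24. It measured 68.7 to 82.3 CPM in KYSE140 and 51.4 and 46.3 CPM in SKMES1 (log2 -0.66 ± 0.07), a fall of 1.58-fold next to the 21.4-fold of its neighbour.

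The 25 genes from MECOM to TTC14 had a median log2 difference of -0.93, with 16 lower, 4 higher and 0 over 6-fold lower. The last count was fixed on both sides of the interval by the way the interval was chosen. Among their signalling genes, PRKCI stood at 237 to 296 CPM in KYSE140 and at 77.9 and 74.7 CPM in SKMES1 (log2 -1.77 ± 0.07). ECT2 stood at 377 to 595 CPM and at 142 and 168 CPM (-1.56 ± 0.08), and PIK3CA at 110 to 190 CPM and at 49.3 and 45.1 CPM (-1.51 ± 0.10). None of these 3 overlapped between the lines. Of the chromatin genes in that stretch, TBL1XR1, a subunit of the NCoR corepressor, was 4.03-fold lower and ACTL6A 2.80-fold lower in SKMES1. The 4 genes that were higher were NCEH1, a cholesteryl ester hydrolase (105 and 191 CPM against 24.4 to 31.4 CPM, log2 2.39 ± 0.17), MECOM, a zinc finger transcription factor (1.59 ± 0.14), TNIK (0.98 ± 0.10) and TTC14. The TNIK groups overlapped, with 7.93 to 35.2 CPM over the 6 KYSE140 libraries and 37.7 and 34.4 CPM in SKMES1.

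The 17 genes from YEATS2 to ETV5 had a median of 0.21, with 4 higher, 3 lower and 0 over 6-fold lower. PSMD2 was higher, at 658 and 716 CPM in SKMES1 against 390 to 442 CPM (log2 0.74 ± 0.06, edgeR adjusted p = 9.1e-07), as were CLCN2, a chloride channel (1.18 ± 0.15), and ETV5 (0.86 ± 0.08), whose groups overlapped. CHRD was also higher (1.69 ± 0.42), but on at most 49 reads, and lost the call without SKMES1 control 1 (1.06). The genes lower were EPHB3, an ephrin receptor tyrosine kinase (4.73 and 6.22 CPM against 16.8 to 31.0 CPM, log2 -2.12 ± 0.13), POLR2H, a subunit shared by the RNA polymerases (-0.80 ± 0.09), and YEATS2. CLCN2 and POLR2H start head to head and differed in opposite directions.

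Summed over their members, the 3 stretches moved apart between the lines. Their borders were set after these values were seen, so the sums describe the stretches and do not test them. The 9 genes from FXR1 to KLHL24 made 2279 to 2845 TPM of the KYSE140 control transcriptomes and 321 and 341 TPM of the SKMES1 ones (2271 to 2785 TPM against 320.3 and 341 TPM without LINC01206). The 25 genes before them summed to 1579 to 1829 TPM and to 756 and 806 TPM. The sum of the 17 genes after them was the reverse, with 1511 to 1738 TPM in KYSE140 and 2174 and 2235 TPM in SKMES1. Much of that rise lay in 3 abundant genes. PSMD2 read 337 to 433 TPM in KYSE140 and 611 and 690 TPM in SKMES1. AP2M1 read 301 to 341 TPM and 555 and 524 TPM, and EIF4G1 242 to 325 TPM and 376 and 408 TPM. Of the 17 genes, 4 were called higher and 3 lower.

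By distance, 11 of the 12 neighbours within 2 Mb of SOX2 were lower in SKMES1 and 1 was higher (median -3.06, with or without LINC01206). From 2 to 5 Mb 9 of 24 were lower and 4 higher (median -0.19), and from 5 to 13 Mb 8 of 15 were lower and 3 higher (median -0.76). By role, the mitochondrial genes had 4 of 5 lower, the signalling genes 7 of 11 and the transcription and chromatin genes 7 of 10, whereas RNA binding and translation had 2 of 8. Over all genes tested 25.8% were lower and 31.4% higher, and of the 51 genes 28 were lower and 8 higher. Role and position are mixed in these counts, since the mitochondrial genes include DNAJC19 and MCCC1 of the interval. Of 57 further genes of 3q26-q29 tested outside the 51, 12 were higher and 17 lower (median -0.24). Besides SOX2 and its host transcript SOX2-OT, 3 such genes lie in the interval from FXR1 to KLHL24. KLHL6 was lower by 5.87 on the log2 scale, MCF2L2 by 0.90, and LINC00888 differed by -0.47 without being called.

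**Figure D2:**
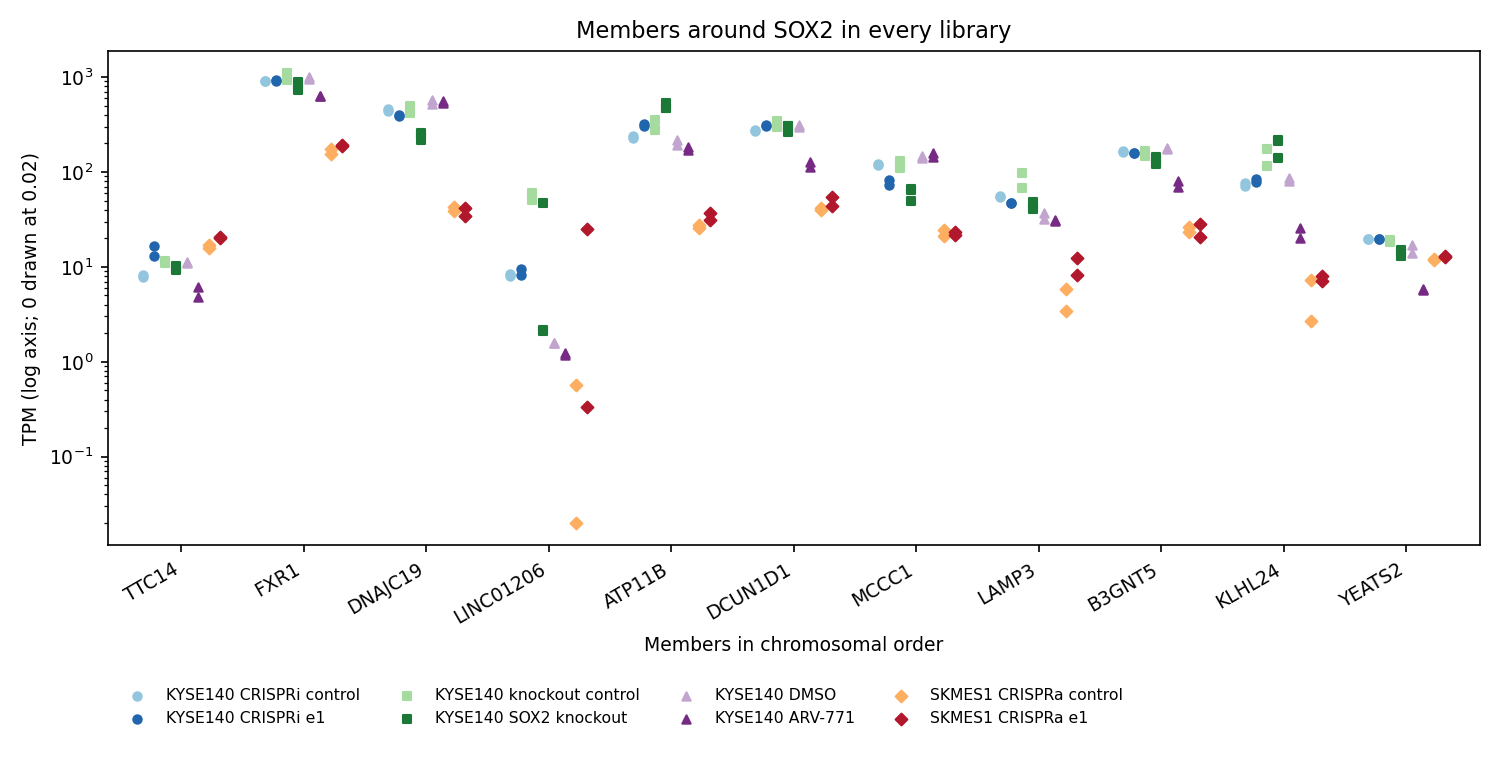
TPM on a log axis (0 drawn at 0.02) of the 9 genes from FXR1 to KLHL24 and the flanking TTC14 and YEATS2, in chromosomal order, one point per library and one colour per group. From FXR1 to KLHL24 the orange and red SKMES1 points lie below the KYSE140 points of each gene except LINC01206, which also varies among KYSE140 groups and reaches 25.1 TPM in one SKMES1 library. TTC14 and YEATS2 show no such gap.

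The 300 bases around the annotated start of 3 genes of the interval are shown as examples. The RefSeq window of each (250 bases before the start and 50 after it) was matched to GRCh37. DNAJC19 (chr3:180707513-180707812, minus strand) begins head to head with SOX2-OT, and the capitals mark the 13 bases that the 2 annotated genes share. KLHL24 (chr3:183353161-183353460, plus strand) and LINC01206 (chr3:181669902-181670201, plus strand) each have in capitals 1 match to an AP-1 motif (TGANTCA). KLHL24 also has 1 match to a SOX motif (ACAATG or ACAAAG, or their complements), while LINC01206 has 0.
DNAJC19: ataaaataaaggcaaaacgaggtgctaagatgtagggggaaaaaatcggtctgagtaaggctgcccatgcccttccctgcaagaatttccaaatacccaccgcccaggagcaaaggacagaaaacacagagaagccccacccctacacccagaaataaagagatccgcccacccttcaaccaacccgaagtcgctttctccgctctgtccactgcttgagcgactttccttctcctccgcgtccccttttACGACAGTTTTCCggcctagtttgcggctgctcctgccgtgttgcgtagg
KLHL24: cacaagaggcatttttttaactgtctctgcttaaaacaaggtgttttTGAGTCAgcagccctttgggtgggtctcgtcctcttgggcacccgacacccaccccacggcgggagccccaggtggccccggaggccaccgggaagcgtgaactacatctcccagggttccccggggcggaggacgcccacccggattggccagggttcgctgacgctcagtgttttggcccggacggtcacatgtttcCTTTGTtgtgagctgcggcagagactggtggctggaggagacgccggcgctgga
LINC01206: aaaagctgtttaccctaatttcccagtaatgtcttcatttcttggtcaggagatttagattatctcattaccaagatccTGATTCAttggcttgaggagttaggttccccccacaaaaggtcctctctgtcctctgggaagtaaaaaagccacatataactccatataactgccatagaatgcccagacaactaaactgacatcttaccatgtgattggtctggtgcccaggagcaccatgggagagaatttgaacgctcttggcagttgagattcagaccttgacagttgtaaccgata

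A RefSeq window was found for 46 of the 51 genes. Their median GC content was 65.0%, against 58.3% over 27305 windows of all genes. The SOX motif occurred on either strand in 9 of the 46 (19.6%) and in 24.6% of all windows, and the AP-1 motif in 3 of 46 (6.52%) and 7.76%. An ETS motif (CCGGAAG) occurred in 7 of 46 (15.2%, against 10.7%), the palindromic NRF1 motif in 4 (8.70%, against 6.28%) and the E-box CACGTG in 4 (8.70%, against 7.43%). TATAAA occurred in 6 (13%, against 12%). Such matches describe the letters of these windows and are not evidence of binding.

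Repression of e1 asked whether the neighbours follow SOX2 when its enhancer is silenced. SOX2 stood at 621 and 588 CPM with the control guides and at 198 and 209 CPM with the e1 guides (log2 -1.57 ± 0.05). Of the 51 neighbours, 4 rose and 5 fell, where 20% of 13792 genes tested were called, 9.3% risen and 10.7% fallen. Their median log2 change was -0.0095, against -0.0015 over all genes.

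In CPM the neighbours nearest SOX2 stayed within the 1.5-fold limit apart from MCCC1. FXR1 stood at 1284 and 1255 CPM in the controls and at 1333 and 1273 CPM with e1 guides (log2 0.04 ± 0.04). DCUN1D1 likewise differed by 0.04 ± 0.05 and ATP11B by 0.08 ± 0.05, with adjusted p = 0.53 and 0.15 by edgeR. In TPM ATP11B was higher with e1 guides (227 and 242 TPM in the controls, 323 and 305 TPM with e1 guides). KLHL24 differed by -0.39 in CPM. LINC01206, the first of the neighbours beyond SOX2, stood at 37.7 and 41.8 CPM and at 38.7 and 34.5 CPM (log2 -0.12 ± 0.10).

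SOX2-OT and DNAJC19, whose shared first bases are printed above, differed widely in level change. SOX2-OT went from 98.5 and 93.8 CPM to 3.91 and 4.79 CPM, a 21.9-fold fall (log2 -4.46 ± 0.12). DNAJC19 went from 265 and 246 CPM to 216 and 213 CPM (log2 -0.25 ± 0.06, edgeR adjusted p = 0.0018), short of the 1.5-fold limit. TTC14 was at 17.3 and 15.8 CPM in the controls and at 22.7 and 19.7 CPM with e1 guides (0.36 ± 0.13), also short of the limit, while on the TPM scale it was called (0.81 on log2(TPM + 1), limma).

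MCCC1, 1.3 Mb beyond SOX2, fell from 192 and 191 CPM to 116 and 120 CPM (log2 -0.70 ± 0.06, edgeR adjusted p = 9.9e-08). It was the only one of the 12 neighbours within 2 Mb to be called. The groups did not overlap, and over the alternatives run the log2 change lay between -0.74 and -0.62.

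Other genes called lay farther away, GPR160 11.6 Mb and NCEH1 9.0 Mb before SOX2. GPR160 fell from 33.0 and 28.2 CPM to 9.60 and 10.9 CPM (log2 -1.57 ± 0.14, edgeR adjusted p = 1.7e-07). NCEH1 rose from 30.9 and 30.03 CPM to 85.2 and 77.9 CPM (1.42 ± 0.08, edgeR adjusted p = 1.9e-09). The groups did not overlap for either gene, and the fold of GPR160 was the size of that of SOX2.

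PLD1, a phospholipase D, fell from 93.9 and 96.6 CPM to 56.9 and 61.4 CPM (-0.69 ± 0.07). TNIK fell from 20.4 and 19.2 CPM to 10.4 and 10.5 CPM (-0.92 ± 0.14), but its TPM did not fall in both libraries (4.99 and 4.71 TPM against 8.46 and 2.62 TPM), and the change was 0.00089 on log2(TPM + 1). CHRD fell on very few reads, from 13 and 16 to 4 and 1 (-2.22 ± 0.71, edgeR adjusted p = 0.019). The CHRD call was lost without either control guide or without e1 guide 2, and with DESeq2.

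MECOM rose from 19.1 and 18.7 CPM to 31.9 and 34.1 CPM (0.81 ± 0.11), PSMD2 from 428 and 436 CPM to 709 and 684 CPM (0.69 ± 0.05) and RPL22L1, a ribosomal protein paralogue, from 43.0 and 42.6 CPM to 75.5 and 61.1 CPM (0.67 ± 0.10). In CPM the groups did not overlap for any of the 9 genes called, which adds little to the call itself. RPL22L1 lost its call without e1 guide 1 (0.52). Among 53 further 3q26-q29 genes, 3 rose and 10 fell (median -0.02). Of the 10 squamous markers 2 rose and 2 fell, and their part in these changes was not tested.

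**Figure D3:**
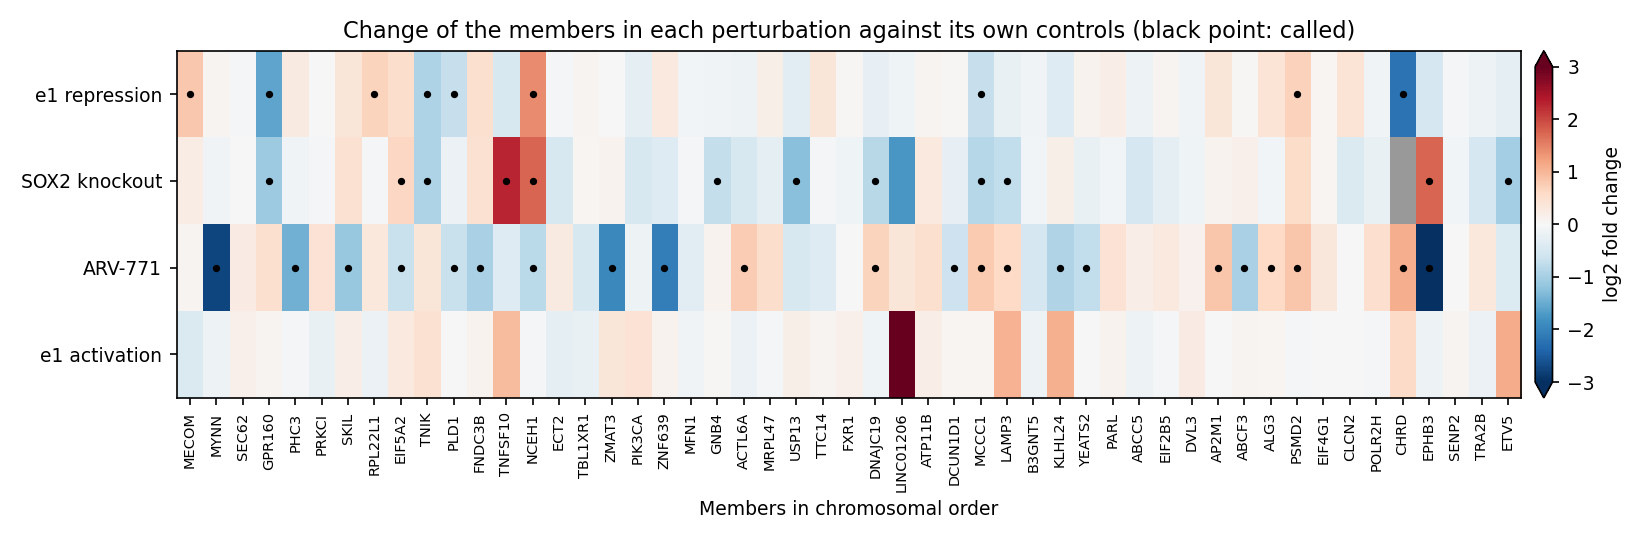
Log2 fold change of the 51 neighbours (columns, in chromosomal order) in each perturbation against its own controls (rows), red for higher and blue for lower, with a black point where a gene was called and grey where it was not tested. Called genes are spread along the segment in the 3 KYSE140 experiments (9, 12 and 22 of them), and none is called in e1 activation, where the dark red cell of LINC01206 rests on 1 of 2 libraries.

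In the SOX2 knockout SOX2 RNA stood at 605 and 638 CPM in the controls and at 184, 217 and 368 CPM with guides 2, 3 and 4 (log2 -1.28 ± 0.21), the last above the other two. A cut gene can still be transcribed, so RNA level is an incomplete check of its loss. Of the 50 neighbours tested, 4 rose and 8 fell, where 29.7% of 13978 genes were called, 16.3% risen and 13.5% fallen. Their median was -0.10, against -0.01 over all genes. CHRD was not tested, with 14 and 3 reads in the controls and 3, 0 and 1 with SOX2 guides. Scaling by library size alone, which moved the median of all genes to -0.21, gave 3 risen and 14 fallen (12.2% and 21.5% of all genes), and limma on TPM gave 4 risen with 12 or 11 fallen.

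Near SOX2, DNAJC19 fell from 258 and 226 CPM to 142, 144 and 121 CPM (log2 -0.84 ± 0.09, edgeR adjusted p = 1.0e-05). MCCC1 fell from 165 and 192 CPM to 88.0, 102 and 104 CPM (-0.87 ± 0.09, edgeR adjusted p = 1.0e-05). LAMP3 fell from 121 and 169 CPM to 85.7, 80.7 and 94.7 CPM (-0.73 ± 0.12), a call that was lost without the chromosome 2 control (-0.48). These 3 encode mitochondrial and lysosomal proteins, and in none of them did the groups overlap.

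The other near neighbours moved less. FXR1 stood at 1212 and 1407 CPM and at 1109, 1251 and 1260 CPM (log2 -0.12 ± 0.08), with overlap. DCUN1D1 differed by -0.23 ± 0.07, TTC14 by -0.03 ± 0.13 and ATP11B by 0.29 ± 0.08, which limma on log2(TPM + 1) put at 0.65 and called. The libraries of LINC01206 did not behave as a group, with 2157 and 2013 reads in the controls and 116, 33 and 1855 reads with guides 2, 3 and 4 (edgeR adjusted p = 0.11). With guides 2 and 3 it stood at 9.25 and 4.81 CPM, and with guide 4 at 194 CPM, close to the controls at 215 and 255 CPM.

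USP13, a deubiquitinase 1.9 Mb before SOX2, fell most among the neighbours called, from 73.2 and 73.0 CPM to 28.7, 31.2 and 31.6 CPM (log2 -1.26 ± 0.09, edgeR adjusted p = 1.8e-07). ETV5 fell from 66.1 and 82.3 CPM to 30.9, 33.2 and 45.0 CPM (-1.02 ± 0.14). GPR160 fell from 32.2 and 26.5 CPM to 13.5, 17.5 and 11.4 CPM (-1.08 ± 0.17). The groups did not overlap for these genes, though ETV5 and GPR160 varied more within groups than USP13 did.

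TNIK fell from 30.6 and 33.0 CPM to 18.9, 14.4 and 16.3 CPM (-0.92 ± 0.13), and GNB4, a G-protein beta subunit, from 85.0 and 91.4 CPM to 53.1, 54.5 and 53.0 CPM (-0.72 ± 0.08). Both changes held on each alternative scale.

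TNFSF10 rose most of the neighbours, from 6.18 and 5.84 CPM to 35.2, 25.8 and 26.1 CPM (log2 2.28 ± 0.19, edgeR adjusted p = 8.9e-07). These controls were the lowest of the KYSE140 controls for this gene, at 5.81 and 5.21 TPM. The CRISPRi controls read 18.2 and 13.4 TPM, the DMSO libraries 10.3 and 10.7 TPM, and the knockout libraries 28.5, 19.9 and 21.7 TPM. EPHB3 rose from 15.7 and 15.9 CPM to 60.9, 57.3 and 39.9 CPM (1.74 ± 0.17, edgeR adjusted p = 4.7e-06), least with guide 4. NCEH1 rose from 22.8 and 24.8 CPM to 75.3, 78.7 and 83.1 CPM (1.73 ± 0.09, edgeR adjusted p = 2.9e-08). In each of the 3 genes every knockout library lay above both controls.

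EIF5A2, a translation factor paralogue, rose from 31.0 and 35.0 CPM to 52.5, 55.2 and 43.7 CPM (0.61 ± 0.12), a call near the limit that was lost without the AAVS1 control (0.52), SOX2 guide 2 (0.58) or guide 3 (0.55). Of the 10 squamous markers, 7 rose with the knockout and 1 fell, where 16.3% and 13.5% of all genes did. KRT6A and KRT5 were among those risen. TP63 was lower, with 167 and 182 TPM in the controls and 56.9, 64.3 and 78.5 TPM with SOX2 guides 2, 3 and 4. The part of these markers in the changes of the neighbours was not tested. Among 54 further 3q26-q29 genes, 5 rose and 7 fell.

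The e1 repression and the SOX2 knockout shared no libraries and could be compared. The genes called in both were 4, GPR160, TNIK and MCCC1 downward and NCEH1 upward, each with the same sign in both experiments. They are 4 of the 50 neighbours tested in both, where 12.6% of 13424 genes were called in both and 12.1% with the same sign. A test of the difference itself, over the 9 libraries of the 4 groups, found 9 of the 51 neighbours to respond differently, where 16.6% of 14455 genes did, 8.21% with the higher and 8.37% with the lower effect in e1 repression. Under library size alone 13 differed (11 higher and 2 lower, against 13% and 6.24% of all genes), and with limma on log2(TPM + 1) 14 (12 and 2, against 9.3% and 4.97%).

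TNFSF10 and EPHB3 differed most. TNFSF10 was at 17.6 and 14.3 CPM with CRISPRi control guides and at 10.2 and 12.6 CPM with e1 guides (log2 -0.48), against the rise of 2.28 in the knockout, and the effects differed by -2.74 ± 0.27 (edgeR adjusted p = 8.7e-06). EPHB3 was at 26.8 and 25.4 CPM and at 16.6 and 20 CPM (log2 -0.51), against 1.74 in the knockout, and the effects differed by -2.23 ± 0.25 (edgeR adjusted p = 2.2e-05). Neither gene was called in e1 repression. The TNFSF10 controls of the 2 experiments differed in level, with means of 15.8 TPM (CRISPRi) and 5.51 TPM (knockout). The other 7 genes, MECOM, RPL22L1, ZNF639, GNB4, USP13, DNAJC19 and ETV5, had the higher effect in e1 repression, by 0.60 to 0.97 on the log2 scale.

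**Figure D4:**
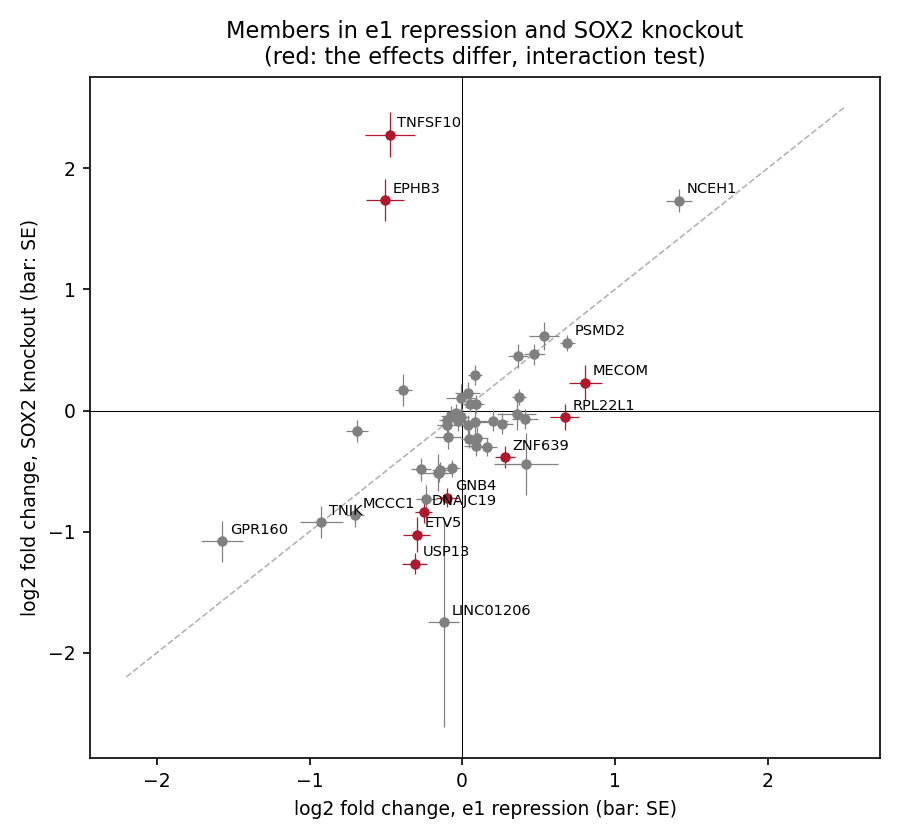
Log2 fold change of each neighbour in e1 repression (horizontal axis) and in SOX2 knockout (vertical axis) with SE bars and the line of equality, for the 50 genes tested in both. Red points are the 9 genes whose effects differed by the interaction test. TNFSF10 and EPHB3 lie high on the left, and NCEH1, GPR160, TNIK and MCCC1 lie near the line. LINC01206 has a wide vertical bar because its 3 knockout libraries disagree.

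ARV-771 changed more of the neighbours. SOX2 went from 353 and 328 CPM with DMSO to 24.4 and 25.5 CPM (log2 -3.77 ± 0.07). With TMM scaling 8 of the 51 neighbours rose and 14 fell, where 52.9% of 13500 genes were called, 21.2% risen and 31.7% fallen. The median of the neighbours was 0.07, and that of all genes -0.04. These directions are relative to other transcripts: scaling by library size alone, which moved the median of all genes to -0.50, gave 0 risen and 22 fallen (2.82% and 45% of all genes). Limma on log2(TPM + 1) also gave 0 and 22 (0.926% and 48%), and scaling to mitochondrially encoded genes, with a median of -1.12, gave 0 and 41 (0.585% and 70.5%). Falls are therefore described first, since they kept their direction in every scaling.

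Among the neighbours the steepest falls were in EPHB3 and in MYNN and ZNF639, genes of transcription and chromatin. EPHB3 fell from 25.8 and 25.8 CPM to 1.79 and 3.96 CPM, 8.59-fold (log2 -3.10 ± 0.19, edgeR adjusted p = 4.0e-13). MYNN, a zinc finger protein of the BTB family, fell from 58.0 and 50.6 CPM to 7.36 and 8.69 CPM, 6.70-fold (-2.74 ± 0.12, edgeR adjusted p = 5.6e-16). ZNF639, another zinc finger protein, fell from 85.5 and 84.0 CPM to 18.6 and 21.5 CPM, 4.19-fold (-2.07 ± 0.09, edgeR adjusted p = 3.3e-16).

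The start windows of these 3 are printed because these genes fell most among the 51. None of the windows holds a match to the motifs searched, hence no capitals. MYNN lies at chr3:169490934-169491233, ZNF639 at chr3:179040414-179040713 and EPHB3 at chr3:184279323-184279622, each on the plus strand of GRCh37 with a GC content of 66.0%, 69.3% and 69.0%.
MYNN: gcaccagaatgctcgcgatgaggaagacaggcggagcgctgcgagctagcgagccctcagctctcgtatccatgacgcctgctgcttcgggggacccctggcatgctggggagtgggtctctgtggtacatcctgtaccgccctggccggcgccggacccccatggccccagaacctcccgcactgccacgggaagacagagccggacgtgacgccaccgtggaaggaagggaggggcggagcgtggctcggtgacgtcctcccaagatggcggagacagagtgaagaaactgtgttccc
ZNF639: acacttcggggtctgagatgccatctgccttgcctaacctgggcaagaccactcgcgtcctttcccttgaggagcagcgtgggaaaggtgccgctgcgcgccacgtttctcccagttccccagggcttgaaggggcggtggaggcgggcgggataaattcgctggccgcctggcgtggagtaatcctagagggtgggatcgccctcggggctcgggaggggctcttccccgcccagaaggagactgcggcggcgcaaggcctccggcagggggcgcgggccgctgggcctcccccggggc
EPHB3: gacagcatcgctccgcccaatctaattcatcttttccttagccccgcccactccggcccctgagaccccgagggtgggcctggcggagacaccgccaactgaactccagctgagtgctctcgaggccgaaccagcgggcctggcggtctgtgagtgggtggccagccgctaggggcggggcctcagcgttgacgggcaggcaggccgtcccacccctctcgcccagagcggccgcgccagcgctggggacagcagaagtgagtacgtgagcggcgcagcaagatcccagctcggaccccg

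ZMAT3, an RNA-binding target of p53, fell from 26.9 and 24.5 CPM to 7.92 and 5.77 CPM (log2 -1.93 ± 0.15). PHC3, a Polycomb protein, fell from 59.6 and 63.4 CPM to 21.3 and 23.7 CPM (-1.44 ± 0.09), and SKIL, a repressor of TGF-beta signalling, from 94.5 and 104 CPM to 42.1 and 48.3 CPM (-1.13 ± 0.08). In TMM-scaled CPM the treated and control libraries did not overlap for any of the 22 genes called, which adds little to the call itself. In TPM some of them did overlap, DNAJC19 among them. Transcription and chromatin genes had 5 of 10 fallen (MYNN, ZNF639, PHC3, SKIL and YEATS2) and 1 risen (ACTL6A), with a median of -0.61. Over all genes 31.7% fell and 21.2% rose.

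The remaining falls were smaller, from -0.63 to -0.98, in FNDC3B, ABCF3, KLHL24, NCEH1, YEATS2, EIF5A2, PLD1 and DCUN1D1. KLHL24 and DCUN1D1 lie near SOX2. KLHL24 fell from 165 and 180 CPM to 83.8 and 100.1 CPM (-0.90 ± 0.07), and DCUN1D1 from 522 and 505 CPM to 342 and 322 CPM (-0.63 ± 0.05), a call lost without ARV-771 culture B (-0.58). The PLD1 call was lost without DMSO culture B (-0.55) or ARV-771 culture A (-0.54). EIF5A2 changed by as little as -0.31 over the alternatives. Its TPM overlapped, with 20.5 and 34.2 TPM under DMSO and 19.9 and 22.6 TPM under ARV-771.

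**Figure D5:**
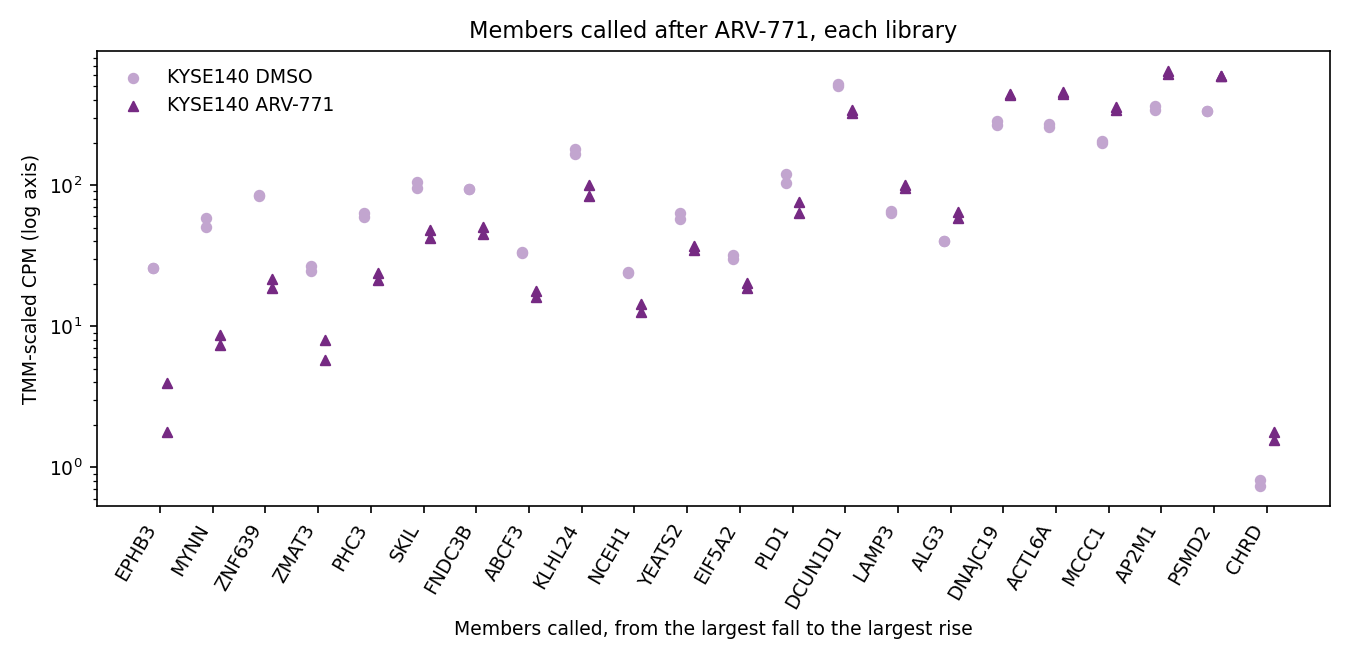
TMM-scaled CPM on a log axis of the 22 neighbours called after ARV-771, ordered from the largest fall to the largest rise, with the DMSO libraries as circles and the ARV-771 libraries as triangles. EPHB3, MYNN and ZNF639 drop by 8.59-, 6.70- and 4.19-fold. The 8 rises at the right are at most 1.78-fold apart from the rarely counted CHRD, and none is called with library size alone, on TPM or with mitochondrial scaling.

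The rises with TMM were between 1.52- and 1.78-fold in PSMD2, AP2M1, MCCC1, ACTL6A, DNAJC19, ALG3 (a mannosyltransferase) and LAMP3, all called without overlap. PSMD2 went from 335 and 335 CPM to 596 and 597 CPM (log2 0.83 ± 0.05) and AP2M1 from 339 and 363 CPM to 638 and 609 CPM (0.83 ± 0.05). In TPM the same libraries read 337 and 339 against 376 and 374 TPM for PSMD2, and 301 and 328 against 336 and 331 TPM for AP2M1. CHRD also passed (1.08 ± 0.47, edgeR adjusted p = 0.042) on 11 and 10 reads against 16 and 18, and lost the call without any single library. ALG3 lost it without ARV-771 culture A (0.54), and LAMP3 without DMSO culture A or ARV-771 culture A (0.57 each).

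FXR1 did not differ on this scale, with 1248 and 1291 CPM against 1276 and 1263 CPM (log2 -0.00 ± 0.04), and was lower in TPM (965 and 997 against 629 and 635 TPM). SOX2-OT fell by 0.86 ± 0.08 while DNAJC19, across their shared start, rose with TMM (0.66 ± 0.05, from 287 and 267 CPM to 432 and 442 CPM) and was level in TPM (577 and 521 against 534 and 561 TPM). ATP11B stood at 705 and 777 CPM and at 1033 and 1027 CPM (0.48 ± 0.05), TTC14 at 17.1 and 17.8 CPM and at 13.5 and 13.2 CPM (-0.39 ± 0.13), both within the 1.5-fold limit. Among 52 further 3q26-q29 genes, 7 rose and 16 fell (median -0.08). Of the 10 squamous markers 4 rose and 1 fell, with the part of this in the result not tested.

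Over the 3 KYSE140 perturbations and e1 activation, 30 of the 51 neighbours were called at least once and 21 in none, where 60.7% of 16285 genes tested in any of them were called at least once. NCEH1 and MCCC1 were called in all 3 KYSE140 experiments, NCEH1 risen, risen and fallen, and MCCC1 fallen, fallen and risen in e1 repression, knockout and ARV-771, where the last rise of MCCC1 depends on TMM scaling. They are 2 of 50 neighbours tested in all 3, against 6.31% of 12979 genes. With TMM scaling PIK3CA, PRKCI, ECT2 and TBL1XR1 were among the 21. In TPM each of them was lower with ARV-771 than with DMSO. TBL1XR1 read 76.1 and 75.0 TPM with DMSO and 26.5 and 28.9 TPM with ARV-771.

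Activation of e1 in SKMES1 asked the converse question. SOX2 went from 2.64 and 2.35 CPM in the controls to 334 and 475 CPM with e1 guides 1 and 3 (log2 7.34 ± 0.26, edgeR adjusted p = 0.0045). None of the 51 neighbours was called by edgeR, where 0.188% of 14859 genes were, 0.168% risen and 0.0202% fallen. At an unadjusted p under 0.05 there were 10 of them, where 14.2% of all genes passed, and DESeq2 called 2, KLHL24 and TNFSF10, and 2.69% of all genes.

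The genes nearest SOX2 differed little. FXR1 stood at 219 and 242 CPM in the controls and at 254 and 256 CPM (log2 0.14 ± 0.10), DNAJC19 at 22.0 and 19.2 CPM and at 21.2 and 16.8 CPM (-0.12 ± 0.18) and DCUN1D1 at 70.1 and 62.1 CPM and at 68.7 and 69.0 CPM (0.06 ± 0.10). ATP11B differed by 0.19 ± 0.11, TTC14 by 0.07 ± 0.13 and MCCC1 by 0.05 ± 0.12. The typical spread between SKMES1 replicates in this comparison was 16.6% of the level (biological coefficient of variation), against 4.74% in e1 repression.

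The genes that other settings called were all higher with e1 guides, save MECOM without SKMES1 control 1. KLHL24 stood at 9.69 and 10.7 CPM in the controls and at 22.2 and 20.3 CPM (log2 1.06 ± 0.16, edgeR adjusted p = 0.11). TNFSF10 stood at 10.3 and 8.60 CPM and at 17.04 and 19.2 CPM (0.95 ± 0.18, edgeR adjusted p = 0.15). ETV5 stood at 88.5 and 93.5 CPM and at 285 and 110 CPM, and LAMP3 at 9.40 and 5.76 CPM and at 10.7 and 19.8 CPM, each raised mainly by 1 of the 2 guides. Without a filter on low counts 5 were called (these 4 and LINC01206), and in one fit over all 17 libraries the same 4 without LINC01206. These settings called 4.6% and 4.76% of all genes.

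LINC01206 had 3 and 0 reads in the controls, 9 reads with e1 guide 1 and 1787 reads (113 CPM) with e1 guide 3. SOX2 RNA was raised by both guides, so the 2 libraries agreed on SOX2 and disagreed on LINC01206. The same transcript had also set SOX2 guide 4 apart from guides 2 and 3 in KYSE140. After activation the 9 genes from FXR1 to KLHL24 summed to 378 and 399.9 TPM in SKMES1 (375 and 378 TPM without LINC01206), against 321 and 341 TPM in its controls and at least 2279 TPM in the KYSE140 controls.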

How the data were processed

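Poly-A RNA of 17 libraries was sequenced after directional library preparation. The authors aligned reads to hg19 with Bowtie2 and quantified genes with RSEM, with versions and strand setting not given in the sources used here. The deposited tables hold expected counts (estimated by RSEM, not normalized between libraries), and the authors also deposited TPM, scaled within each library with effective lengths estimated per library, so TPM and count ratios can differ. FPKM deposited by the authors was not used. Groups were taken from the labels.

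Rounded expected counts went into edgeR 4.0.16 under R 4.3.3 (quasi-likelihood test, two-sided), with TMM scaling, filterByExpr (minimum count 10, minimum total 15), all genes in the fit and Benjamini-Hochberg adjustment. Genes were called at adjusted p under 0.05 and fold over 1.5. A further comparison set SKMES1 against KYSE140 controls, and an interaction contrast set e1 repression against SOX2 knockout. Printed CPM are TMM-scaled within each comparison. At 3 counts a gene stands at 0.19 to 0.413 CPM, which covers counting error only.

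The 51 members and the lists were chosen with earlier results of these data known. Values were given for the genes nearest SOX2, the members called and separated between groups (per library for up to 12 of smallest p), those called more than once and the 5 of highest TPM. Coordinates came from GENCODE mapped to GRCh37 (55538 of 57820 genes matched), and start windows from RefSeq (GRCh38.p14), each found once in GRCh37. Of the 51 genes, 27 had whole counts in all libraries; FNDC3B, ECT2, ZMAT3 and MFN1 did in none and share reads with other genes. ACTL6A and MRPL47 overlap by 123 bases, so their reads may be mixed.

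On simulated data with 200 genes changed 3-fold, 184 to 200 were recovered over the 6 comparisons with 7 to 23 false calls, the most in e1 activation, where the fewest were recovered. Alternatives were RLE scaling, library size alone, other count filters, DESeq2 1.42.0, limma 3.58.1 on log2 TPM (pseudocount 1 or 0.1, mean TPM at least 1), other fold limits, all libraries in one fit, a replicate block, each library left out, single control groups and mitochondrial scaling.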

Additional observations from a re-analysis of the deposited data

Results flagged for a closer look

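Among the 51 neighbours 9 had effects that differed between e1 repression and SOX2 knockout in KYSE140 by the interaction test of edgeR, each given as the effect of e1 repression minus that of the knockout on the log2 scale, where 16.6% of 14455 genes differed. TNFSF10 differed by -2.74 and EPHB3 by -2.23, since both rose in the knockout and not in e1 repression. USP13 differed by 0.97, ETV5 by 0.75, GNB4 by 0.64 and DNAJC19 by 0.61, since each fell in the knockout and was not called in e1 repression. RPL22L1 differed by 0.75 and MECOM by 0.60, since each rose in e1 repression and was not called in the knockout. ZNF639 differed by 0.69, with changes of 0.28 and -0.38 that were called in neither. The experiments differed in Cas9 construct and library series as well as in target, which cannot be told apart. MECOM lost its call in 10 of the alternatives, DNAJC19 without CRISPRi control 2, knockout control 1 or SOX2 guide 4 (0.55, 0.51 and 0.53) and ETV5 without CRISPRi control 1, e1 guide 2 or knockout control 2 (0.71, 0.62 and 0.59).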

How the results depend on the processing

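The counts of neighbours called stayed within 1.5 times the reported count except as follows. A fold limit of 2 left 3 in e1 repression, 6 in the knockout, 7 with ARV-771 and 2 in the interaction, and no limit gave 28, 25, 42 and 22. Mitochondrial scaling gave 41 with ARV-771. E1 activation gave 5 without a filter, 2 with DESeq2 and 4 in the fit of all 17 libraries, and the interaction gave 14 with limma under either pseudocount. Leaving out each library gave 8 to 11 in e1 repression, 11 to 13 in the knockout, 18 to 21 with ARV-771, 0 to 3 in e1 activation, 35 to 38 between lines and 7 to 11 in the interaction. The 9 genes from FXR1 to KLHL24 were called lower under each setting of the line comparison, 7 to 9 of them over 6-fold, and against the DMSO controls alone GPR160 outside the interval passed 6-fold too (-2.66).

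Direction reversed for FXR1 in e1 repression with library size alone (-0.0028) and for TNIK with log2(TPM + 1) (0.00089). With ARV-771, FXR1 gave 0.045 with RLE or DESeq2 and 0.076 in the fit of all libraries. Mitochondrial scaling gave -0.43 for DNAJC19, -0.60 for ATP11B, -0.30 for MCCC1, -0.31 for ACTL6A, -0.47 for LAMP3 and ALG3, and -0.25 for AP2M1 and PSMD2. Under both pseudocounts limma gave -0.00335 for DNAJC19, -0.20 for ATP11B, -0.16 for LAMP3, -0.17 for ALG3 and, in e1 activation, -0.0170 or -0.0176 for MCCC1. Leaving out each library reversed values near 0, with ranges of -0.027 to 0.024 for FXR1 with ARV-771 and -0.12 to 0.062 for TTC14 in the knockout. In e1 activation the ranges were -0.29 to 0.046 for DNAJC19, -0.0020 to 0.15 for TTC14, -0.025 to 0.15 for DCUN1D1 and -0.021 to 0.12 for MCCC1, and SOX2 in the interaction ranged up to 0.086. The causes were not tested.

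Same-numbered libraries did not deviate together (correlation of deviations 0.015 in e1 repression, -0.042 with ARV-771 and 0.021 between lines), so the numbers do not pair them. With the number as a replicate block, 9 were called in e1 repression, 21 with ARV-771 and 37 between lines with CRISPRi controls alone, and no count moved by over 1.5 times. The spread of the SKMES1 replicates limits what e1 activation can show.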
